A study of Mus musculus with 6 samples.

Results

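The secreted Wnt antagonists are extracellular proteins that keep Wnt ligands from signalling, and 9 of their genes were followed here in mouse retina: Sfrp1, Sfrp2, Sfrp5, Frzb, Dkk1, Dkk2, Dkk3, Wif1 and Notum. Every probe whose platform annotation gives 1 of these symbols was taken, which gave 14 probes among the 45281 on the array. Total retinal RNA was hybridised to Illumina mouse BeadChips with 1 array per sample, 3 from Vldlr knockout mice and 3 from wild-type mice. Both groups carry the same background strain entry, JAX, which names no strain, so whether the groups share a strain is not known here. The labels give neither the age of the mice nor the kind of mutation in Vldlr. They do not say either whether each array stands for a different mouse, so every p-value below reflects the variation among these arrays alone, part of which may be technical.

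Wnt proteins carry a lipid that docks into Frizzled receptors, and with the co-receptors Lrp5 or Lrp6 they stabilise beta-catenin. Secreted frizzled-related proteins (Sfrp1, Sfrp2, Sfrp5 and Frzb, also called Sfrp3) hold a Frizzled-like domain that binds the ligand, and Wif1 binds it through a domain of its own. Dkk1 and Dkk2 act on the co-receptor together with Kremen proteins, Dkk3 is a divergent member of that family, and Notum is an enzyme that removes the lipid from Wnt. Vldlr is the gene of the receptor for very low density lipoproteins. Mice without it grow vessels from the retina towards the pigment epithelium, and the receptor has been described as a negative regulator of Wnt signalling, which is the setting in which the antagonists are of interest.

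Between 18710 and 20974 probes per array (41.3% to 46.3%) were detected, that is, had a detection p under 0.05, which is also what above background means in what follows. Rod transcripts marked the tissue as retina on every array, with Pde6b, a subunit of the rod phosphodiesterase, at a log2 signal of 13.56 to 13.62 in knockout and 13.51 to 13.54 in wild-type arrays on probe ILMN_2595543. Some arrays stood apart. Across tested probes, wild-type replicate 3 had a correlation of at most 0.962 with any other array, while each of the others reached at least 0.981 with 1 of them. Knockout replicate 1 had far more lens transcript than the rest, and knockout replicate 3 had the most rod transcript. Results that rest on these arrays are given with and without them.

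None of the antagonist probes passed the test between knockout and wild-type retinas. Of the 14 probes, 9 (of 5 genes: Sfrp1, Frzb, Dkk3, Wif1 and Notum) had a signal above background on at least 3 of 6 arrays and were tested, and by limma 0 of these 9 had an adjusted p under 0.05, against 435 of all 19921 tested probes (2.18%). At an unadjusted p under 0.05 there were 3 of the 9, a probe of Sfrp1 and both tested probes of Notum, against 2340 (11.7%) of all tested probes. All 3 were lower in the knockout arrays, but both Notum probes had entered the test only through the wild-type arrays, where they were higher, so this share is not support for a difference. The remaining 5 probes, those of Sfrp2, Sfrp5, Dkk1 and Dkk2 and another of Notum, were above background on 0 to 2 arrays.

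**Figure D1:**
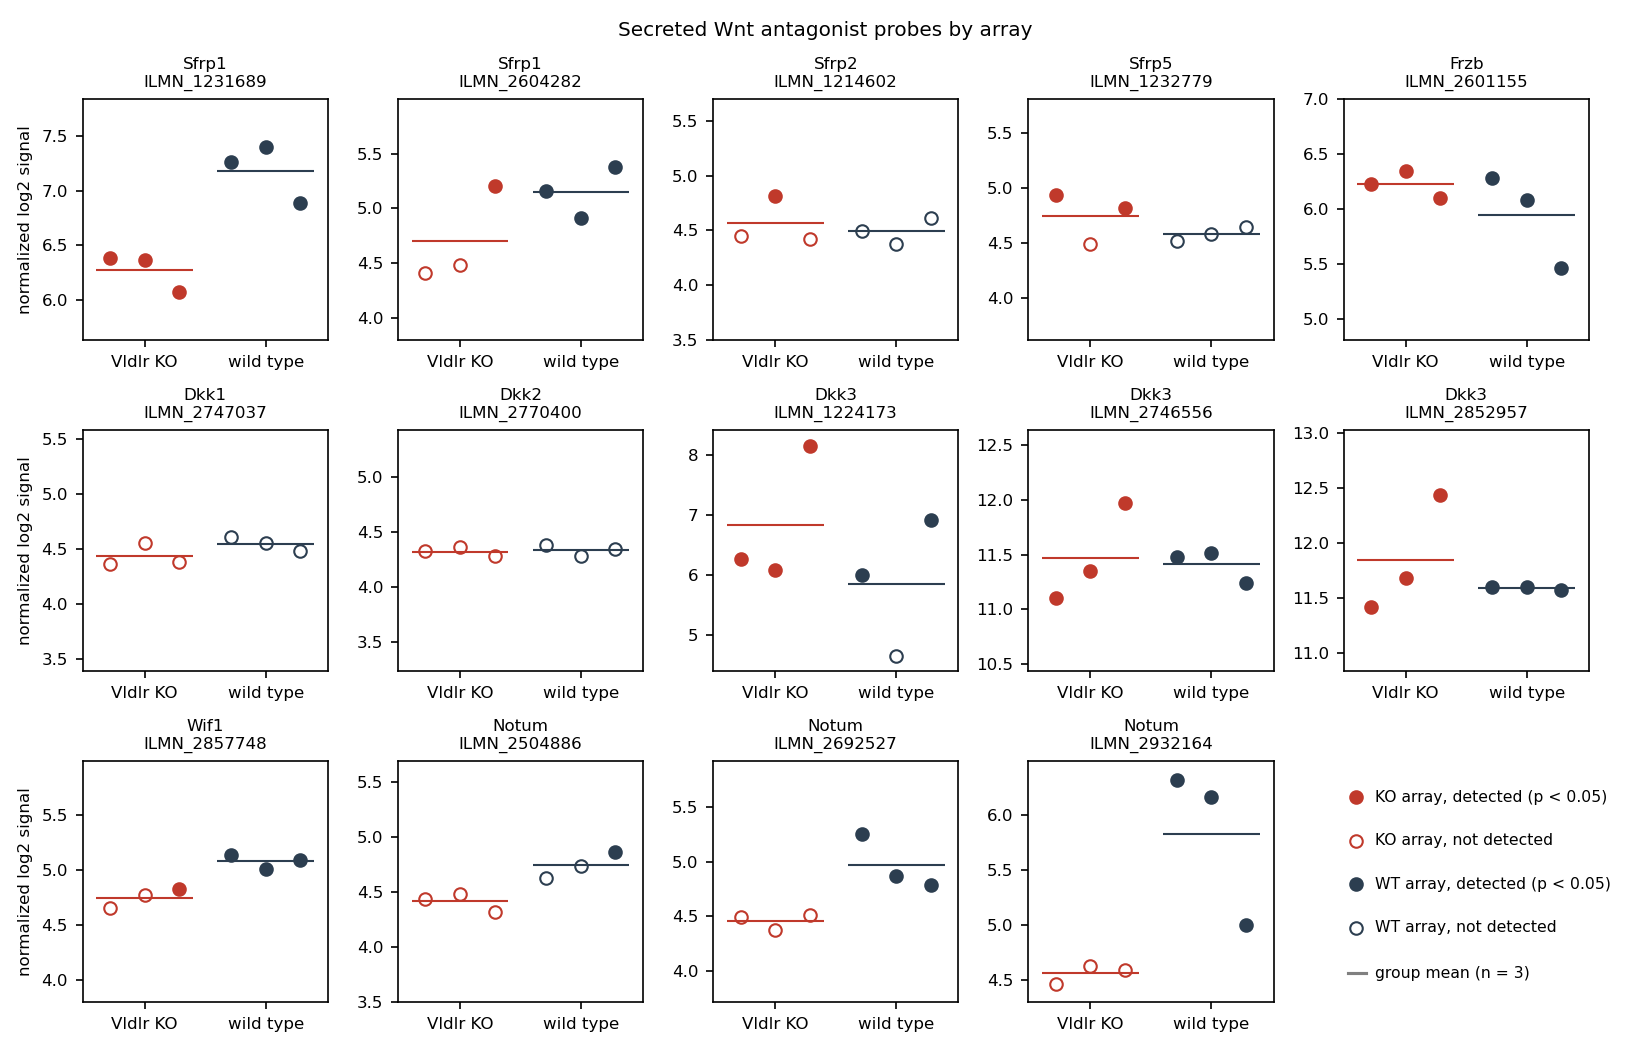
Normalized log2 signal of each of the 14 antagonist probes (y axis) on the 3 Vldlr knockout arrays and the 3 wild-type arrays. Each point is an array, open where the probe was not above background, and lines are group means. Sfrp1 probe ILMN_1231689, the Wif1 probe and the Notum probes part the groups, with the knockout arrays below the wild-type arrays.

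Sfrp1 gave the smallest p of all antagonist probes. Its probe ILMN_1231689 had a log2 signal of 6.39, 6.37 and 6.07 in knockout replicates 1 to 3, against 7.26, 7.40 and 6.89 in wild-type replicates 1 to 3. The groups did not overlap, with the 3 knockout arrays lower, and the probe was above background on all 6 arrays. The means were 6.28 ± 0.176 in knockout and 7.18 ± 0.262 in wild-type arrays (SD, n = 3 each). The difference of -0.91 (SE 0.195, 95% interval -1.35 to -0.46) corresponds to 53.4% of the wild-type signal, with an unadjusted p of 0.0013 and limma's adjusted p = 0.0565, just short of the threshold of 0.05. It ranked at 457 among all tested probes by p, close behind the 435 that passed. The call turned on settings that barely moved the size. With 1 probe kept per gene, over 13989 probes, the same difference had an SE of 0.192 and an adjusted p = 0.0463. Without wild-type replicate 3 the difference was -1.06 (adjusted p = 0.0176), and leaving out any other single array gave -0.96 to -0.79 with no call.

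The second Sfrp1 probe was dimmer and less clear. ILMN_2604282 had a log2 signal of 4.41, 4.48 and 5.20 in the knockout arrays, against 5.16, 4.91 and 5.38 in the wild-type arrays. It was above background on 1 of 3 knockout arrays, replicate 3, and on all 3 wild-type arrays. Knockout replicate 3 lay among the wild-type values, so the groups overlapped, and the difference of -0.45 (95% interval -1.01 to 0.11) had limma's adjusted p = 0.52. It was -0.091 with the authors' normalized values. Signals below 16 were set to 16 in that fit, which compresses the difference of a dim probe such as this one. Both Sfrp1 probes thus had the same sign, and the array that was lowest of the knockout group on the brighter probe was the highest on the dimmer one.

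Notum had the largest negative difference among the antagonist probes, and it was not above background in any knockout retina. Probe ILMN_2932164 had a log2 signal of 4.46, 4.63 and 4.58 in knockout arrays, against 6.32, 6.17 and 4.996 in wild-type arrays. Wild-type replicates 1 and 2 were well apart from the knockout arrays, whereas wild-type replicate 3 lay just above them. The fitted difference was -1.27 (SE 0.322, 95% interval -2.002 to -0.54), with limma's adjusted p = 0.109. It was -0.69 with an offset of 50 and -0.65 with quantile normalization of the raw signal. Since the knockout signal was at background, the size is given only as a bound on the ratio of the group means at the offset used. With the knockout arrays set to the dimmest signal still detected on each of them (4.73 to 4.82), the knockout mean was 2.07-fold lower. This bound allows for neither the spread among arrays nor the choice of offset, and wild-type replicate 3 lay close to those dimmest signals. Wild-type replicate 3 carried most of the spread, with an SD of 0.0851 in knockout and 0.725 in wild-type arrays (n = 3 each). Without it the difference was -1.65 (adjusted p = 0.00107), and without any other single array it was -1.30 to -1.05 and did not pass.

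The other Notum probes were nearer to background and had the same order. ILMN_2692527 had a log2 signal of 4.49, 4.38 and 4.51 in knockout arrays, where it was not above background, against 5.25, 4.87 and 4.78 in wild-type arrays, where it was above background on all 3. It differed by -0.51 (95% interval -0.92 to -0.10, limma's adjusted p = 0.308). By the same bound on the group means it was 1.14-fold lower in knockout arrays. With the authors' normalized values, set to 16 where lower, the difference was -0.085, a size that the floor compresses. ILMN_2504886, which was above background on wild-type replicate 3 alone and was not tested, had 4.44, 4.48 and 4.32 in knockout arrays against 4.63, 4.73 and 4.87 in wild-type arrays. All 3 Notum probes therefore kept the groups apart. They read the same transcript and are not independent of one another.

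Over all 14 antagonist probes, tested or not, the groups did not overlap in 5 with knockout lower and in 0 with knockout higher. Over all 45281 probes the same held for 6.87% with knockout lower and 6.91% with knockout higher. Among the 9 tested probes the counts were 4 lower and 0 higher, against 8.84% lower and 9.28% higher of all tested probes. The same filter bears on the 4, since the 2 Notum probes passed it through the wild-type arrays alone and Wif1 mainly so. The 5 probes were the 3 of Notum, the brighter one of Sfrp1 and that of Wif1, so they stand for 3 genes. Of the 9 tested probes, 5 had a negative and 4 a positive difference, with a median of -0.33 against 0.03 over all tested probes. The probes of Notum, Wif1 and the dimmer Sfrp1 probe passed the detection filter mainly through the wild-type arrays, so that median carries the filter with it, and over the antagonist probes left by a stricter filter (a detection p below 0.01 throughout at least 1 group) it was 0.16.

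Wif1, which binds Wnt ligands directly, was close to background. Its probe ILMN_2857748 had a log2 signal of 4.65, 4.77 and 4.82 in knockout arrays, against 5.13, 5.01 and 5.09 in wild-type arrays. It was above background on 1 of 3 knockout arrays and on all 3 wild-type arrays, and the groups did not overlap. The difference of -0.33 (SE 0.158, 95% interval -0.69 to 0.03) had limma's adjusted p = 0.462. It was -0.14 with the authors' normalized values, set to 16 where lower, a size that the floor compresses. The spread within each group was small (SD 0.0886 in knockout and 0.0635 in wild-type arrays, n = 3 each), and a dim probe is compressed towards no change by the background offset used here.

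Frzb was measured on all 6 arrays and did not pass in either direction. Its probe ILMN_2601155 had a log2 signal of 6.23, 6.35 and 6.10 in knockout arrays, against 6.28, 6.09 and 5.46 in wild-type arrays. The groups overlapped, and wild-type replicate 3 was the one array apart from the rest. The difference was 0.28 (95% interval -0.24 to 0.81, limma's adjusted p = 0.68), and without wild-type replicate 3 it was 0.04 (adjusted p = 0.942).

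Sfrp2 and Sfrp5, close relatives of Sfrp1, were at the edge of detection. The Sfrp2 probe ILMN_1214602 had 4.45, 4.82 and 4.43 in knockout arrays against 4.49, 4.38 and 4.61 in wild-type arrays, and it was above background on knockout replicate 2 alone. The Sfrp5 probe ILMN_1232779 had 4.93, 4.49 and 4.82 in knockout arrays against 4.52, 4.58 and 4.64 in wild-type arrays. It was above background on 2 knockout arrays, replicates 1 and 3, and on 0 wild-type arrays, and the groups overlapped because knockout replicate 2 had the lowest value of all. Neither was tested, and a difference in these transcripts was not detectable at this signal.

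Dkk3, a divergent Dickkopf protein that is made by Müller glia among other retinal cells, was far above background and showed no difference between the groups beyond the spread of the knockout arrays. Its probe ILMN_2852957 had a log2 signal of 11.42, 11.68 and 12.44 in knockout arrays, against 11.60, 11.60 and 11.57 in wild-type arrays. The wild-type arrays were nearly equal, and knockout replicate 3 stood above all others. The difference was 0.26 (SE 0.256, 95% interval -0.32 to 0.84, limma's adjusted p = 0.74). Without knockout replicate 3 it was -0.036 (adjusted p = 0.96).

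The same array was the highest on the other Dkk3 probes. ILMN_2746556 had 11.10, 11.35 and 11.97 in knockout arrays against 11.48, 11.52 and 11.24 in wild-type arrays, with a difference of 0.06 (95% interval -0.48 to 0.60, adjusted p = 0.946), which turned to -0.19 without knockout replicate 3 (adjusted p = 0.781). The dim probe ILMN_1224173 had 6.28, 6.09 and 8.16 in knockout arrays against 6.01, 4.66 and 6.93 in wild-type arrays, where wild-type replicate 2 was not above background. Its difference was 0.98 with a wide interval of -0.49 to 2.45 (limma's adjusted p = 0.599). It was 0.30 without knockout replicate 3, 0.37 without wild-type replicate 2 and 1.503 without wild-type replicate 3, and passed in none of these. Over the 6 arrays the 2 bright probes had a Pearson r of 0.919 (Spearman's rho 0.829). The dim probe had a Pearson r of 0.434 with ILMN_2746556 and 0.712 with ILMN_2852957, but a Spearman's rho of -0.086 and 0.086 in the same order, so ranks did not bear out a relation.

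Knockout replicate 3 also stood apart in rod transcripts. The summed signal of the 12 tested rod probes was 97920, 97432 and 118860 in knockout replicates 1 to 3, against 95450, 92091 and 97896 in wild-type arrays. The cone sum of that array, 19321, lay within the range of the other arrays. The summed signal of the 20 tested Müller glia probes was lowest within the knockout group in that array (29975, with 37497 and 34732 in replicates 1 and 2), against 37324, 32736 and 29779 in wild-type arrays. That sum is linear, so bright probes weigh most in it. The median log2 signal of the same probes went the other way and was highest in knockout replicate 3. It was 8.82, 9.04 and 9.62 in knockout replicates 1 to 3, against 8.93, 9.06 and 9.31 in wild-type arrays. All 9 rod genes on the array had a tested probe, and 0 of the 12 rod probes were called by limma in either direction (1 had an unadjusted p under 0.05). Of the Müller glia probes, 3 fell, those of Spc25 and Dapl1, and 0 rose, against 1.53% and 0.653% of all tested probes. In sign, 11 of the 20 were positive and 9 negative. The part of these transcripts in the Dkk3 values was not tested. Of 13783 probes of other genes detected on all 6 arrays, those most like Dkk3 probe ILMN_2852957 were of Nop53 (Pearson r = 0.995), a ribosome biogenesis factor, Naa25 (0.988), a subunit of an N-terminal acetyltransferase, and Mrps33 (0.988), a mitochondrial ribosomal protein. Each of the 3 had its highest value in knockout replicate 3, and none was called between the groups (limma's adjusted p of 0.77 to 0.839).

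Dkk1 and Dkk2, the Dickkopf proteins that act on Lrp5 and Lrp6, were above background on 0 of 6 arrays. Dkk1 had 4.36, 4.56 and 4.38 in knockout arrays against 4.61, 4.55 and 4.48 in wild-type arrays, and Dkk2 had 4.32, 4.36 and 4.28 against 4.38, 4.27 and 4.34. Their detection p ran from 0.189 to 0.699 for Dkk1 and from 0.629 to 0.908 for Dkk2. With 1 probe each, a low transcript and a poor probe cannot be told apart.

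**Figure D2:**
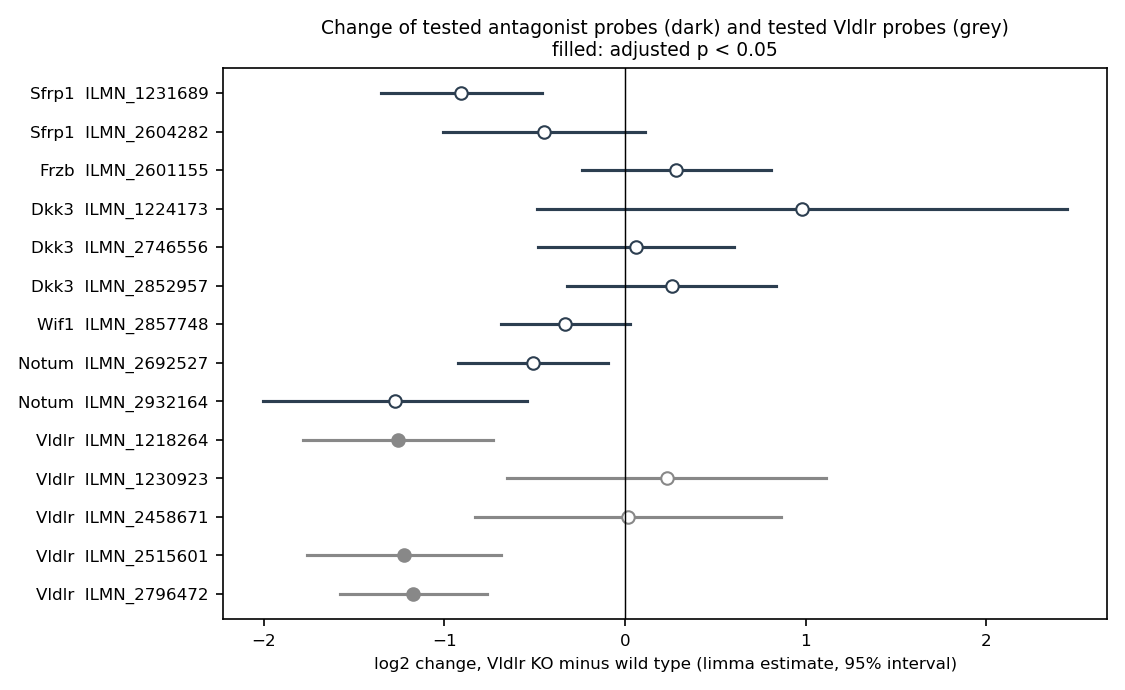
Difference in log2 signal, knockout minus wild type, with its 95% interval for the 9 tested antagonist probes (dark) and the 5 tested Vldlr probes (grey). Filled points have an adjusted p under 0.05. The antagonist probes run from -1.27 (Notum) to 0.98 (Dkk3) and are all open, and 3 of the 5 Vldlr points are filled.

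The targeted gene gives 1 example of a called change on these arrays. The brightest Vldlr probe, ILMN_2796472, had a log2 signal of 10.16, 10.22 and 10.41 in knockout arrays, against 11.31, 11.33 and 11.68 in wild-type arrays. It fell by 1.17 (SE 0.179, limma's adjusted p = 0.00946). Of the 5 tested Vldlr probes 3 fell, and the other two, both dimmer, were at 0.23 (ILMN_1230923, adjusted p = 0.857) and 0.02 (ILMN_2458671, adjusted p = 0.992). A further probe was above background on 0 arrays. The position of the mutation against this probe is not stated, so these probes do not check the genotype. The call of ILMN_2796472 was lost without knockout replicate 1 (-1.12, adjusted p = 0.0699) and without knockout replicate 2 (-1.15, adjusted p = 0.0719), with the authors' deposited normalized values (-1.15, adjusted p = 0.125), and with the replicate block by title number (-1.004, adjusted p = 0.113).

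Several markers of the ciliary body and iris, which border the retina, were also lower in the knockout arrays. A list of 13 such markers had 10 genes with a tested probe, and 6 of its 20 tested probes fell while 0 rose, against 1.53% and 0.653% of all tested probes. Otx1, a homeobox factor of the anterior eye margin, differed by -3.09 (limma's adjusted p = 4.17e-05), Bmp4, a growth factor ligand, by -2.93 (adjusted p = 4.74e-05) and the gap junction protein Gja1 by -1.94 (adjusted p = 0.000846). The summed signal of the list was 9181 to 10076 in knockout arrays and 10978 to 12422 in wild-type arrays, without overlap. The sum is linear, so bright probes weigh most in it. Gja1 is such a probe, at a log2 signal of 8.74, 9.16 and 9.22 in knockout and 11.15, 10.97 and 10.82 in wild-type arrays. The gap between the sums therefore rests largely on Gja1 and does not show a drop across the list. Of its genes Opn5 was above background on no array. Several of these genes, among them Gja1, Aqp1 and Tfap2b, are also used by retinal glia or neurons, and Aqp1 and Tfap2b had no called probe. In sign, 13 of the 20 probes were negative and 7 positive, among them 5 of the 6 Tfap2b probes and Aqp1 probe ILMN_2756486, at 0.45 with groups that did not overlap (adjusted p = 0.398). Pigment epithelium markers, another neighbouring tissue, had 0 of 14 tested probes called by limma (1 at an unadjusted p under 0.05), and their sums overlapped, at 3033 to 4591 in knockout and 3390 to 4098 in wild-type arrays. In bulk retina fewer cells of a type and less RNA per cell cannot be told apart, and the part of these tissues in the Sfrp1 and Notum values was not tested.

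Markers of other cells and tissues differed between arrays as well. The counts of called probes below stand against 0.653% of all tested probes that rose and 1.53% that fell. The sums are linear, so bright probes weigh most in them. The 11 tested microglia probes had a summed signal of 608 to 635 in knockout and 719 to 928 in wild-type arrays. The 20 tested endothelial probes had 5755 to 6270 in knockout and 3966 to 5210 in wild-type arrays. Of these 20, 2 rose, both of Nos3, and 0 fell. In sign, 12 were positive and 8 negative, among the latter Tie1 at -0.44 with groups that did not overlap (limma's adjusted p = 0.398). None of the microglia probes passed by limma, with 4 at an unadjusted p under 0.05. Of 11 tested cone probes 3 rose, those of Arr3 and Gnat2, and 2 fell, both of Pde6c, with sums of 18945 to 20030 in knockout and 19355 to 20023 in wild-type arrays. Of 14 tested erythrocyte probes 2 fell, of Hbb-bs and Hbb-bt, and 0 rose, with 8 at an unadjusted p under 0.05 in both directions and sums of 36484 to 63648 in knockout and 29125 to 68270 in wild-type arrays. Of 11 fibroblast and sclera markers 6 had a tested probe, and 1 of the 7 tested probes fell, that of Ogn (-1.92, limma's adjusted p = 0.00142), with a summed signal of 344 to 402 in knockout arrays and 464 to 625 in wild-type arrays. Col3a1, Dpt and Lum of this list were above background on no array. The summed signal of the 18 tested lens probes was 58358 in knockout replicate 1, with 3337 and 4098 in the other knockout arrays, against 8879, 1523 and 8752 in wild-type arrays, and 0 of the 18 were called by limma, with 0 at an unadjusted p under 0.05. In sign, 17 of the 18 were positive, with a median of 0.92. Without knockout replicate 1, Sfrp1 probe ILMN_1231689 differed by -0.96 (adjusted p = 0.175) and Notum probe ILMN_2932164 by -1.25 (adjusted p = 0.353), sizes close to those with all arrays.

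**Figure D3:**
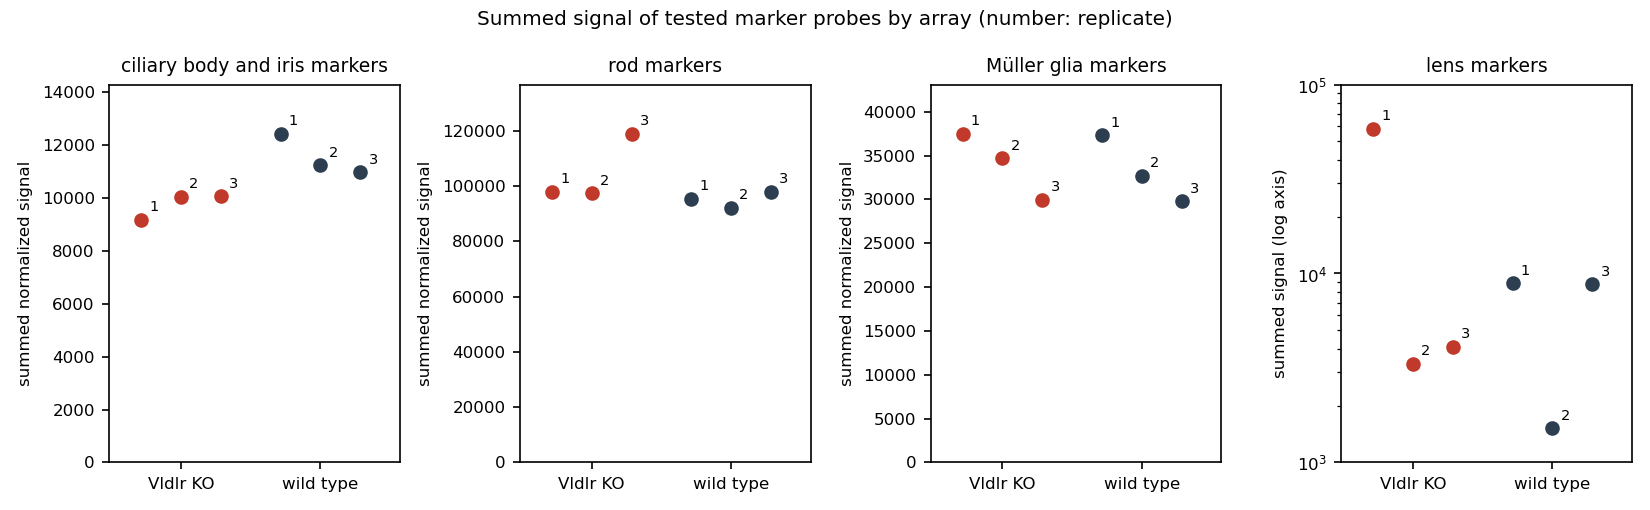
Summed normalized signal of the tested probes of 4 marker lists on each array, with the replicate number beside each point. The ciliary body and iris sum lies lower on all 3 knockout arrays than on the wild-type arrays, a gap that rests largely on the bright Gja1 probe. The rod sum is highest on knockout replicate 3, and the lens sum, on a log axis, is highest on knockout replicate 1.

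The rest of the Wnt pathway showed few called changes. Of 91 further pathway genes 49 had a tested probe, and 2 of their 77 tested probes passed (2.6%, against 2.18% of all tested probes), both lower in the knockout. The share is near that of all probes. In sign, 50 of the 77 were negative and 27 positive, against 46.2% negative over all tested probes. The median was -0.12, against 0.03 over all tested probes. Some genes have several of the 77 probes, which are not independent of one another.

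Among the ligands, 4 of 20 genes had a tested probe, and 1 of the 6 tested probes fell and 0 rose. Wnt9b, a ligand of the canonical pathway, had a log2 signal of 5.17, 4.99 and 5.03 on probe ILMN_2937340 in knockout arrays, against 5.97, 6.21 and 6.15 in wild-type arrays. It fell by 1.04 (SE 0.164, limma's adjusted p = 0.0111), with its other probe at -0.61 (adjusted p = 0.444). The call was lost without knockout replicate 2, knockout replicate 3 or wild-type replicate 2, with adjusted p = 0.0985, 0.0569 and 0.0558 in that order. Wnt5a, a ligand that mostly acts outside the beta-catenin route, was at -0.44 (adjusted p = 0.521), with its other tested probe at 0.03. Wnt5b was at -0.32 (adjusted p = 0.65). Wnt6 was at -0.15 (adjusted p = 0.801). Ndp, the norrin ligand of the retinal vasculature, was above background on no array.

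Among receptors and co-receptors 12 of 18 genes had a tested probe, and 1 of 19 tested probes fell and 0 rose. Fzd6, a Frizzled receptor, had 4.35, 4.36 and 4.78 on probe ILMN_2775016 in knockout arrays, against 5.68, 6.11 and 5.49 in wild-type arrays. It fell by 1.26 (SE 0.218, limma's adjusted p = 0.0187) and was above background on 1 of 3 knockout arrays and on all 3 wild-type arrays. It thus passed the detection filter mainly through the wild-type arrays, where it was higher. The other tested Fzd6 probe was at 0.23 (adjusted p = 0.771). The call was lost without knockout replicate 1 or 2 or wild-type replicate 1 or 2 (adjusted p up to 0.112). With an offset of 50 the difference of ILMN_2775016 was -0.64 (adjusted p = 0.0707), and with quantile normalization of the raw signal -0.67 (adjusted p = 0.0615). With no filter its adjusted p was 0.0807. With the authors' normalized values neither it (adjusted p = 0.141) nor Wnt9b (adjusted p = 0.077) passed. Fzd7 was at -0.79 (adjusted p = 0.221), Kremen1, through which Dkk1 and Dkk2 act, at -0.53 (adjusted p = 0.374), and Ryk at -0.37 (adjusted p = 0.47). Of the norrin receptor complex, which the naming rule did not cover, Tspan12 differed by 0.01 (adjusted p = 0.994) and Lrp5 by 0.05 (adjusted p = 0.956). That Lrp5 probe was dim and above background on 2 of 3 arrays in each group. The other Lrp5 probes were above background on 0 or 1 arrays and were not tested. The 2 probes of Fzd4, the norrin receptor itself, were above background on 0 and 1 arrays and were not tested.

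**Figure D4:**
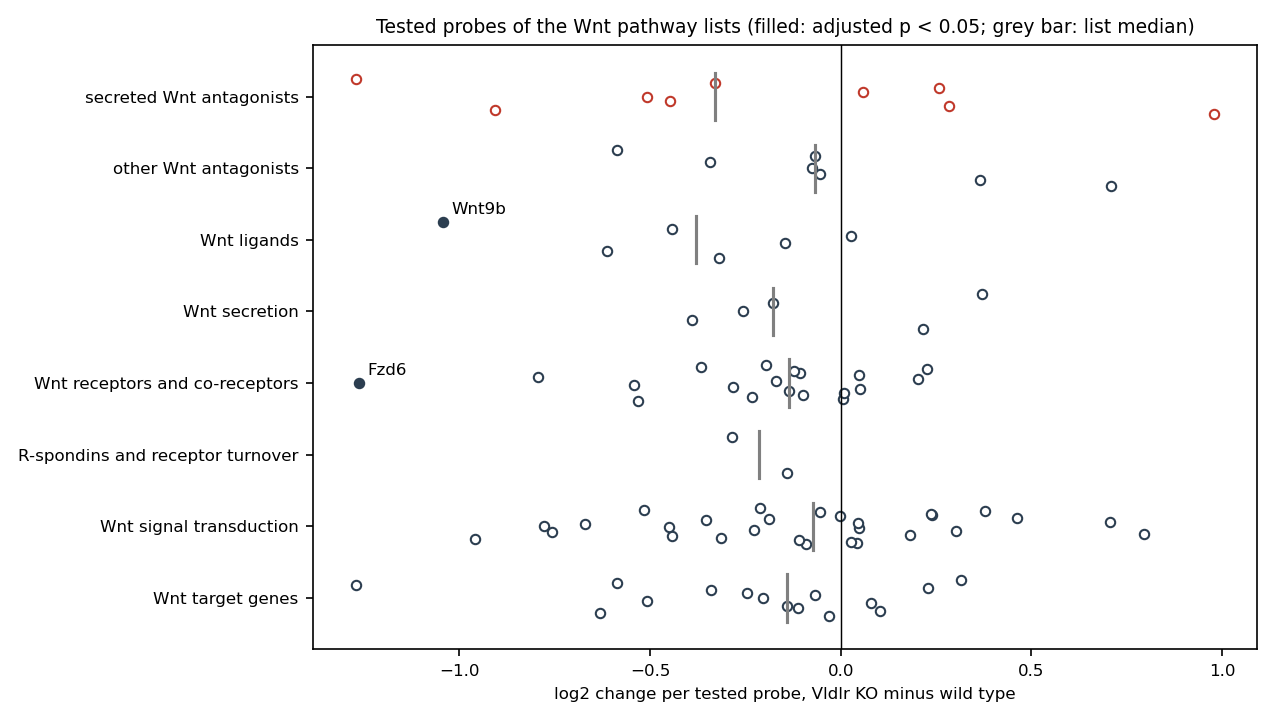
Difference in log2 signal, knockout minus wild type, of each tested probe of the antagonists (red) and of 7 Wnt pathway lists, which share some genes. Filled points passed an adjusted p of 0.05 and grey bars are list medians. The filled points are 1 probe of Wnt9b and 1 of Fzd6.

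Within the cell, 17 of 22 transducers had a tested probe and 0 of 28 tested probes passed by limma (6 at an unadjusted p under 0.05). The smallest p was that of Tle1, a corepressor of the TCF factors, at -0.96 (adjusted p = 0.0632), and its other tested probes were at -0.78 and -0.44. Tle2, of the same family, was at 0.80 (adjusted p = 0.123). Bcl9, a beta-catenin cofactor, was at -0.67 (adjusted p = 0.379), with its other tested probe at 0.03. Beta-catenin itself, Ctnnb1, was at 0.71 on its probe with the smallest p (adjusted p = 0.421), a dim one above background on 2 of 3 wild-type arrays. Its other tested probes were brighter, at 0.30, 0.38 and 0.24, with groups that overlapped. Of target genes of the pathway, among which Notum counts, 10 of 16 had a tested probe and 0 of 15 tested probes passed (3 at an unadjusted p under 0.05, of which 2 were of Notum). Nkd2, a feedback inhibitor, was at -0.63 (adjusted p = 0.185). Apcdd1, a membrane inhibitor, was at -0.59 (adjusted p = 0.463), with its other tested probe at -0.07. Axin2, the most widely used readout of beta-catenin signalling, was at -0.34 (adjusted p = 0.584).

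A list of 11 other Wnt antagonists had 5 genes with a tested probe, and 0 of 7 tested probes passed by limma (1 at an unadjusted p under 0.05). Draxin, an axon guidance protein that also inhibits Wnt, was above background on all 3 knockout arrays and on 0 wild-type arrays on probe ILMN_1220583. As a bound on the group means it was 1.29-fold higher in knockout arrays (adjusted p = 0.141), but it entered the test through those arrays alone. Of its untested probes, ILMN_3089931 was at -0.18 and above background on 1 wild-type array only, and ILMN_3018201 was above background on no array. Tpbg was at 0.36 (adjusted p = 0.453) and Igfbp4 at -0.34 (adjusted p = 0.494), with its other tested probe at -0.06. Sfrp4, Sost, Dkk4 and Cer1 were above background on no array. Wls, the carrier that brings Wnt to the cell surface, was at -0.39 (adjusted p = 0.426) and Porcn, which adds the lipid that Notum removes, at 0.37 (adjusted p = 0.43), and 0 of 5 tested probes of these 2 genes passed. The R-spondin list had 2 tested probes, of Rspo2 (-0.29, adjusted p = 0.709) and Lgr5 (-0.14, adjusted p = 0.921). At an unadjusted p under 0.05 there were 0 probes in either of these lists.

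**Figure D5:**
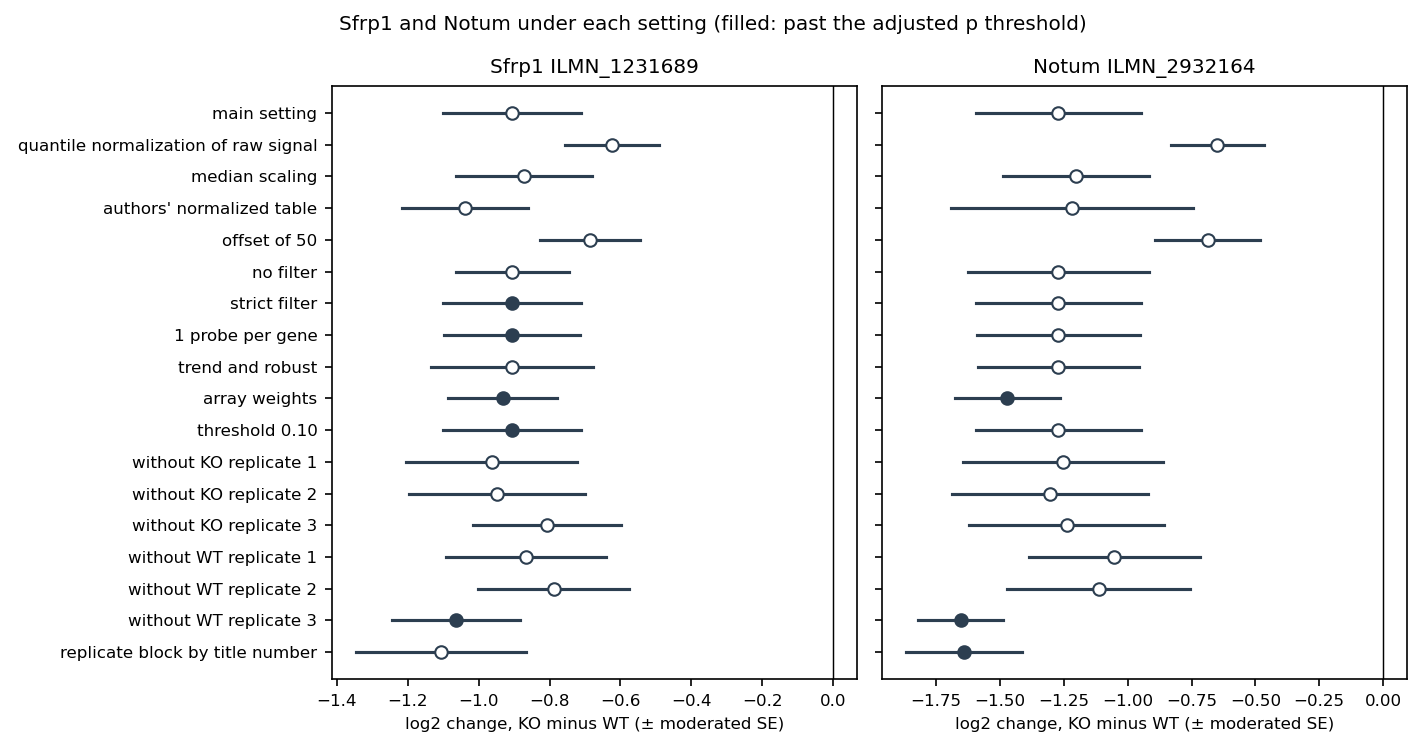
Difference in log2 signal, knockout minus wild type, with its moderated SE for Sfrp1 probe ILMN_1231689 and Notum probe ILMN_2932164 under the main setting and 17 alternatives. Filled points are past the threshold of that setting. All values are negative, but several alternatives keep the estimate of the main setting by design. Sfrp1 is filled in 5 and Notum in 3 alternatives.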

How the data were processed

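Raw probe intensities (average bead signal, linear scale) were deposited together with detection p-values, per the file headers, and so was a table called normalized. Its deposited intensities are the raw ones less a single constant for each array, between 57.2 and 69.1, to within 0.1. The series value table differs from it in 0 values. Per the labels' protocols RNA was extracted with a column kit and labelled with biotin, and GenomeStudio (version not given in the sources used here) is the software named, per the submitters' processing notes. Gene names come from the platform annotation, in which 34885 probes have 1 symbol. No coordinates are given, since the files name no genome build.

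The non-normalized intensities were processed with neqc of limma 3.58.1 in R 4.3.3 (background fitted from the detection p-values, offset of 16, quantile normalization, log2). Testing was limited to the 19921 probes with 3 or more of 6 arrays at a detection p below 0.05. Knockout minus wild type was estimated with limma's lmFit and eBayes without covariates, and 2-sided p-values were adjusted after Benjamini and Hochberg over all tested probes, at a threshold of 0.05. Each probe was tested on its own, and levels of different probes were not compared. For a probe above background on 0 arrays of a group the change is a bound on the group means, with no allowance for the spread among arrays. With 3 arrays a group, an exact permutation test could not go below 0.1 and was not used. The number of arrays limits the precision. The fit was tested on simulated data.

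The antagonists, the pathway and marker lists and the alternatives were chosen with earlier results of these data known. All antagonist probes are named, and of each pathway list up to 4 genes with the smallest p. A pathway gene is given by its probe with the smallest p unless another is stated. For likeness, 3 probes of other genes detected on all arrays with the highest Pearson r to the brightest antagonist probe were taken. In fits without an array the tested probes were kept and the rest renormalized. In the fit on the authors' normalized values, signals below 16 were set to 16 before log2. Figures were drawn with matplotlib 3.10.9.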

Additional observations from a re-analysis of the deposited data

How the results depend on the processing

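Over 17 alternatives the Sfrp1 probe ILMN_1231689 was negative in 17 (-1.11 to -0.62, adjusted p of 0.00583 to 0.215) and the Notum probe ILMN_2932164 in 17 (-1.65 to -0.65, adjusted p of 0.00107 to 0.549). These signs were largely fixed in advance. With no filter, the strict filter, 1 probe per gene, another variance model and a threshold of 0.10 the estimate is that of the main setting by design. With groups that did not overlap, leaving out 1 array could hardly change the sign. Sfrp1 passed with the strict filter (-0.91, adjusted p = 0.0493), with 1 probe per gene (-0.91, 0.0463), with array weights (-0.93, 0.00583) and at a threshold of 0.10 (-0.91, 0.0565). Notum passed with array weights (-1.47, adjusted p = 0.002). Without single arrays Sfrp1 ran from -1.06 to -0.79 and Notum from -1.65 to -1.05, and both passed only without wild-type replicate 3. With quantile normalization of the raw signal Sfrp1 was -0.62 and Notum -0.65, where no background was taken off. The cause of these moves was not tested. The number of antagonist probes called was 0 in the main setting, 1 with the strict filter, with 1 probe per gene and at a threshold of 0.10, 2 with array weights, and 0 to 2 without single arrays.

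The count over all probes, 435, was 223 with the authors' table, 920 with array weights (41.1% of them higher, against 29.9% of 435) and 234 to 499 without single arrays. It was 247, 234 and 288 without knockout replicates 1, 2 and 3, of which 19.8%, 17.5% and 24.3% were higher. The 2 other pathway probes called were 1 with quantile normalization of the raw signal, with an offset of 50, with no filter and with 1 probe per gene, 0 with the authors' table, 5 with array weights and 0 to 2 without single arrays. Without single arrays Dkk3 probe ILMN_2746556 ran from -0.19 to 0.24 and ILMN_2852957 from -0.036 to 0.47. The first changed sign without knockout replicate 3 (-0.19) or wild-type replicate 3 (-0.028) and with array weights (-0.13), and the second without knockout replicate 3 (-0.036). The median over the tested antagonist probes, -0.33, was 0.16 with the strict filter, and that of the Wnt ligands, -0.38, was 0.01 with no filter, where other probes enter. No alternative moved the median of all tested probes by over 0.1.

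The numbers in the sample titles are shared by 2 arrays of each group (4 and 5), and nothing in the labels says that they pair samples. Deviations of same-numbered arrays from their group means correlated at -0.02 and -0.27 across probes. With the replicate block by title number, on those 4 arrays, Sfrp1 was -1.11 (adjusted p = 0.0923), Notum -1.64 (adjusted p = 0.0133), 1 antagonist probe was called, 282 probes were called in all and 1 of the other pathway probes. Vldlr probe ILMN_2796472 did not pass there (-1.004, adjusted p = 0.113), nor did Wnt9b probe ILMN_2937340 (-1.08, adjusted p = 0.0867). No BeadChip is named in the headers, so that block was not run. Deviations of arrays with the same replicate number correlated at 0.28, 0.31 and 0.36 for replicates 1 to 3, more than in any other pairing. No block by replicate number was fitted. Probes near background limit what can be said of Sfrp2, Sfrp5, Dkk1, Dkk2 and Wif1.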
